A study of Homo sapiens with 48 samples.

Results

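The 44 genes described here encode the nuclear pore proteins named NUP with a number, the importins and exportins, and the core of the Ran cycle. The genes were taken by symbol, with no value in the rule, although the rule itself was written with earlier results of these data known: NUP followed by a digit, KPNA, KPNB, IPO or XPO followed by a digit where present, and TNPO1, CSE1L, RAN, RANBP1, RANGAP1 and RCC1. They are 44 of 11963 genes on the array, with 98 of the 22215 probe sets tested. A further 1 probe set carries the symbols of both IL4I1 and NUP62 and was left out. RNA of K562, an established line from a human leukaemia with the BCR-ABL1 kinase, was hybridised to Affymetrix expression arrays. The 24 imatinib samples received 1 micromolar imatinib, an inhibitor of that kinase, for 24 hours, and the 24 mock samples were mock treated. Samples carry 8 letters, A to H, called sets here, since their meaning is not stated in the labels, and each set holds 3 imatinib and 3 mock samples. RNA of the imatinib samples was isolated with a column kit alone, and RNA of the mock samples with Trizol and then a column kit, and spike controls were added at a lower level to the imatinib samples, so that treatment and isolation cannot be told apart in any result below.

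Proteins, tRNAs and messenger RNA particles cross the nuclear envelope through nuclear pores, which are built from rings of scaffold proteins around a channel filled with flexible, phenylalanine-glycine rich strands. Importin alpha proteins hold the classical nuclear localisation signal of a cargo and are carried through the channel by importin beta, while other receptors of the same superfamily bind their cargo directly. The small GTPase RAN sets the direction: its GTP-bound form in the nucleus releases import cargo and loads export receptors, and its hydrolysis in the cytoplasm unloads them. Proliferating cells keep making pores and transport factors, as nuclei grow in interphase and the pores are taken apart and rebuilt at each division.

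All levels are the deposited log2 values, and all changes are log2 values of imatinib minus mock. A gene stands for its brightest probe set, and a change is called higher or lower where the Benjamini-Hochberg adjusted p of limma over all 22215 probe sets is under 0.05. Array means lay between 5.88 and 7.61 and differed mainly between sets, so levels are compared within sets only, and levels of different probe sets are not compared. Among K562 markers, GATA1, HBE1, TAL1, TFRC and KLF1 lay between the percentiles 80.6 and 99.7 of all probe sets. All 5 of them were higher in imatinib samples, by 0.21 (TFRC) to 2.44 (TAL1). Of 5 measured markers of other cells, CD14 and MS4A1 lay at the percentiles 29.0 and 36.7, CD3E at 67.2, COL1A1 at 79.8 and EPCAM at 85.1. Among these, COL1A1 (0.18) and CD3E (0.17) were higher and the other 3 did not pass. Their part in the results below was not tested.

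The 300 bases around the start of transcription (250 before it, 50 after it) were read from RefSeq windows on GRCh38.p14 for 38 of the 44 genes, in 49 windows, and were searched on both strands. A total of 6 motifs was counted, each separately and whether or not it overlapped another. CACGTG, the E-box that MYC and related factors can bind, was found in 8 of the 49 windows (16.3%), against 8.76% of the 14057 windows of all array genes. It was found in 6 of 39 windows of genes that fell (15.4%) and in 2 of the 10 windows of the others. TTTGAA, the letters of the cell cycle genes homology region, was found in 13 of 49 windows (26.5%), against 11.8% for all array genes. All 13, from 11 genes, belonged to genes that fell, as did 39 of all 49 windows. Overlapping windows of a gene, such as those of NUP98, were counted separately. CCGGAAGT, an ETS core, was found in 12.2% of the windows against 5.43%, and GCATGCGC, an NRF1 core, in 10.2% against 3.81%. All 6 windows with CCGGAAGT and all 5 with GCATGCGC also belonged to genes that fell. CCAAT was found in 46.9% against 35.1%, and GGGCGG in 53.1% against 59.2%. These are letter matches and no tests were made on them. The windows of KPNA2, the largest fall, and KPNA3, the largest rise, are printed, with those of RAN and IPO4, which fell and hold an E-box. The E-box, the CCAAT box, TTTGAA and their reverse complements are in capitals, and each window reads 5′ to 3′ on the strand of its gene: KPNA2 at chr17:68035485-68035784 on the plus strand, KPNA3 at chr13:49792633-49792932 on the minus strand, RAN at chr12:130871816-130872115 on the plus strand and IPO4 at chr14:24188767-24189066 on the minus strand.
KPNA2: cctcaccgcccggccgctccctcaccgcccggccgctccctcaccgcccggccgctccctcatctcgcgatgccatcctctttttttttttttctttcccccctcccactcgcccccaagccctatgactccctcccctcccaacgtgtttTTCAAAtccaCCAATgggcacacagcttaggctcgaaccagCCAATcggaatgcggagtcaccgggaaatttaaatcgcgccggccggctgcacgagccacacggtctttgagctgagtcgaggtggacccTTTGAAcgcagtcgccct
KPNA3: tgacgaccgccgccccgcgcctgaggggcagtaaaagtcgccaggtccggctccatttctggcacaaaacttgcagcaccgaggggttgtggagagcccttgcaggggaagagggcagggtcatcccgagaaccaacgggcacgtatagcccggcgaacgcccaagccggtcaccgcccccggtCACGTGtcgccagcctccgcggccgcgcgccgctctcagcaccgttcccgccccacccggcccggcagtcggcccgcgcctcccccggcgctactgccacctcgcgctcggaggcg
RAN: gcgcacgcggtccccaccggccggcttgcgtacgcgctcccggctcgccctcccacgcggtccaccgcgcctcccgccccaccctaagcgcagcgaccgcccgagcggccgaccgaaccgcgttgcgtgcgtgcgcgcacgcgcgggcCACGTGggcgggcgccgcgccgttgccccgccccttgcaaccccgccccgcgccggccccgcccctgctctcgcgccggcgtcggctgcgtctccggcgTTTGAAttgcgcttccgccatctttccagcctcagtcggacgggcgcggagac
IPO4: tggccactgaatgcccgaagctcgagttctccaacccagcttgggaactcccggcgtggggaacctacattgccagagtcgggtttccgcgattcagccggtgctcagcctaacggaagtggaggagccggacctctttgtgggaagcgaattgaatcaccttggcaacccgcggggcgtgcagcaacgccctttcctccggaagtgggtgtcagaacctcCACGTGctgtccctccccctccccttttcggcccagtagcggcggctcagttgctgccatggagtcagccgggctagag
The KPNA2 window holds a pair of CCAAT boxes and TTTGAA on either strand, without an E-box. The KPNA3 window holds CACGTG with its first base at position -66, counted from the start of transcription, and neither of the other motifs in capitals. The RAN window holds CACGTG at -102 and also TTTGAA, and the IPO4 window holds CACGTG at -29. Among the other windows with CACGTG, those of IPO7, NUP188, NUP50 and RCC1 belong to genes that fell, and that of XPO1 to a gene that did not pass.

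Most of the pore and transport genes were lower after imatinib. In the combined comparison of 24 imatinib with 24 mock samples, with the set as a factor, 33 of 44 genes were lower, 6 were higher and 5 did not pass, and the median change was -0.33. Over all 11963 genes, 27.1% were lower and 41.6% were higher, with a median of 0.05. Of the members, 41 had a mean level no lower than the median of the whole array, and 31 of these were lower and 5 higher. Among all genes at such levels 39.5% were lower and 41.4% higher. Counted by probe set, 74 of the 98 were lower and 13 higher, against 25.8% lower and 39.3% higher over all probe sets. With each array centred on its median, 6638 of all probe sets were lower and 6194 higher, against 5738 and 8740 as deposited, while 35 member genes were lower and 5 higher. Less RNA of a gene per cell and fewer cells that carry it cannot be told apart in these bulk samples, and the labels name no separate cultures, so every p-value reflects only how far these samples scatter, a scatter that may be technical.

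**Figure D1:**
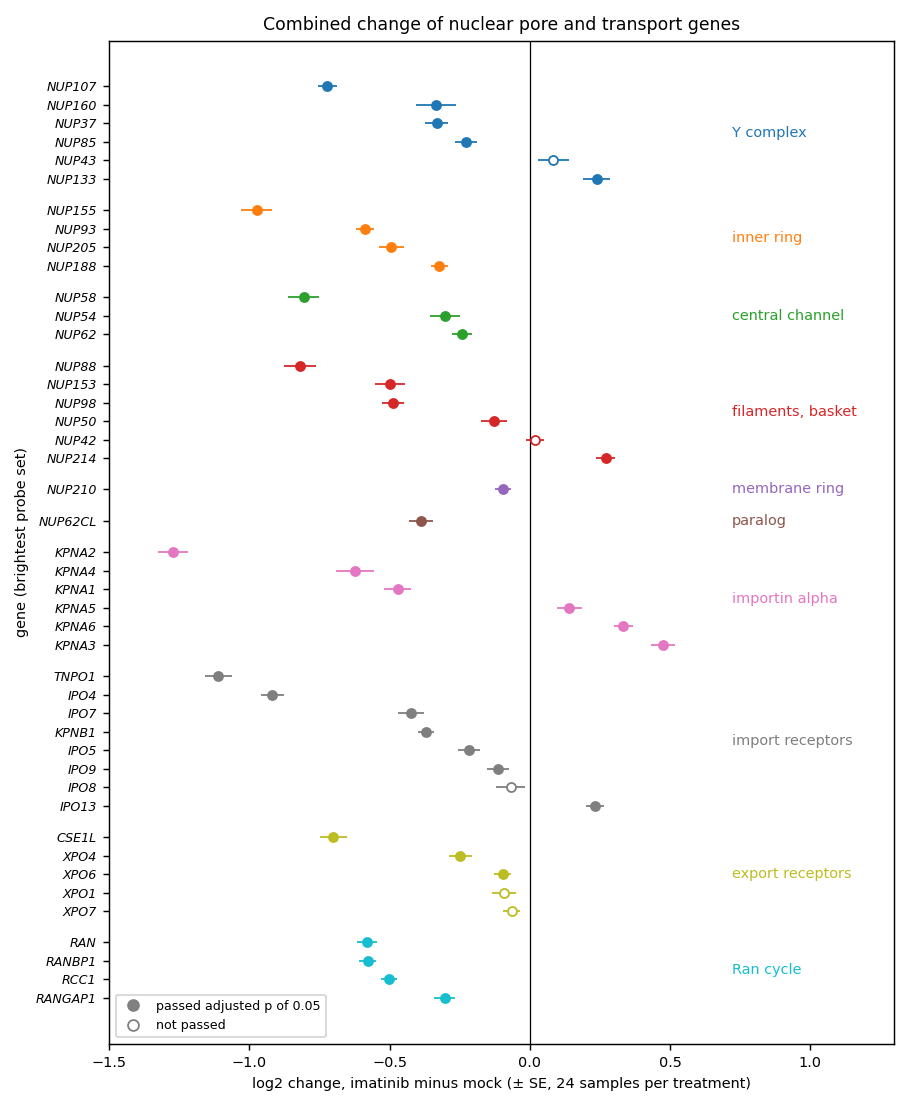
Combined log2 change (imatinib minus mock, ± SE, 24 samples per treatment) of the 44 genes, one row each, grouped by role; filled points passed an adjusted p of 0.05. The points run between -1.27 (KPNA2) and 0.47 (KPNA3). The inner ring, central channel, export receptor and Ran cycle groups lie entirely below 0, as do NUP210 and NUP62CL.

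Each set on its own gave the same order of counts, lower above higher. In set A 23 members were lower and 4 higher, against 15.9% and 14.7% of all genes. In set B the counts were 31 and 4 (21.3% and 30.1% of all genes), and in set C they were 29 and 2 (21.4% and 20.8%). Set D had 30 lower and 4 higher (20.3% and 23.8%), and set E had 22 lower and 2 higher (13.7% and 8.03%). In set F 18 were lower and 1 higher (10.7% and 8.12%), in set G 25 and 2 (16.9% and 12.7%) and in set H 18 and 3 (12.7% and 13.4%). The median member change lay between -0.44 in set C and -0.21 in set F. The count of lower members in set E was 14 without imatinib sample 3, 14 without mock sample 2 and 30 without imatinib sample 1. The counts of higher members, all 4 or fewer, moved by up to 3 genes when 1 sample was left out.

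The members called lower in all 8 sets were KPNA2, TNPO1, NUP155, IPO4, NUP88, NUP58, NUP107, CSE1L, NUP93, RAN, RANBP1 and RCC1. These are 12 of 44, against 7.76% of all genes. No member was called higher in all 8 sets, where 4.61% of all genes were, and the closest were KPNA3 and KPNA6 with 6 sets each. In 15 members the 3 imatinib samples lay below the 3 mock samples without overlap in every set, against 9.91% of all genes: the 12 above with KPNB1, KPNA1 and NUP188. The opposite, no overlap upward in every set, held for 0 members and 6.48% of all genes. The set mean was below mock in all 8 sets for 28 members (20.6% of all genes) and above it for 4, KPNA3, KPNA6, NUP214 and NUP133 (21.7%). No member was called in opposite directions in different sets, and only 33 of all 11963 genes were.

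**Figure D2:**
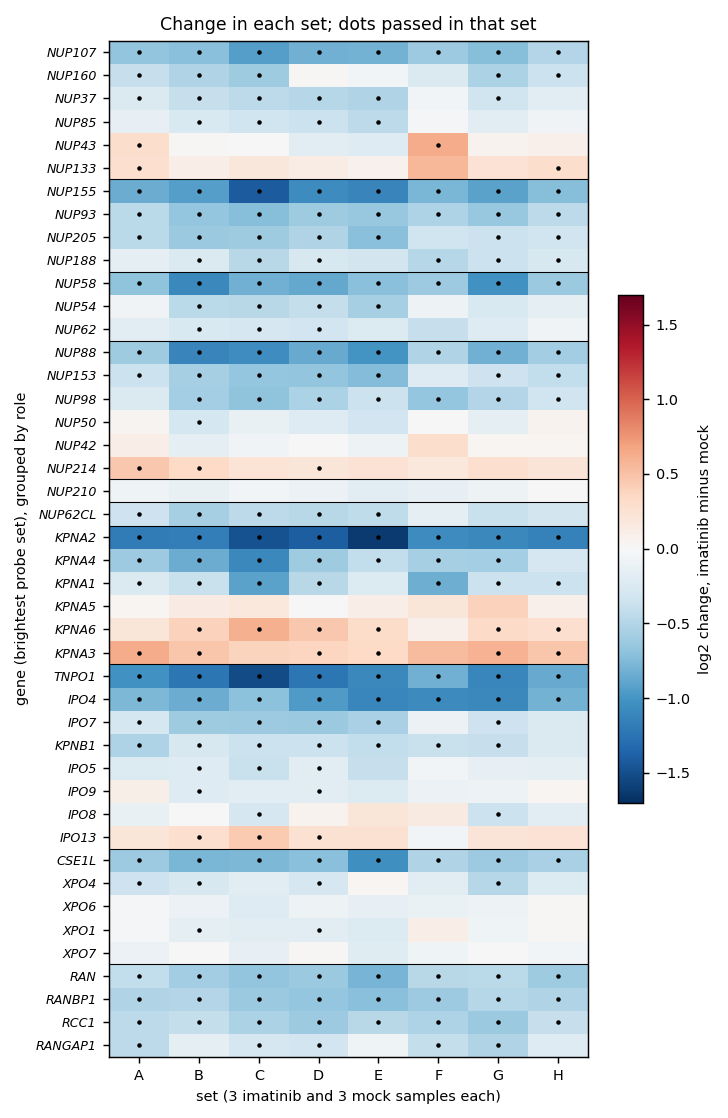
Change of each member gene (rows, grouped by role) in each set (columns, 3 imatinib and 3 mock samples each), as log2 of imatinib minus mock on a colour scale; a dot marks an adjusted p under 0.05 within that set. KPNA2 and TNPO1 are blue in all 8 columns, TNPO1 palest in set F (-0.82). The rows of KPNA3, KPNA6, NUP214 and NUP133 are in shades of red in all 8, some very pale (0.07 for NUP133 in set E).

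The Y complex builds the outer rings of the pore scaffold and had 6 members, with 4 lower, 1 higher and 1 that did not pass (median -0.28). NUP107, one of its stem subunits, had the largest change. Its level in set A was 8.74, 8.72 and 8.86 in the imatinib samples, against 9.31, 9.35 and 9.66 in the mock samples. The treatments did not overlap in that set or in any other, and the combined change was -0.72 ± 0.03 (SE; adjusted p 8.32e-24, limma). NUP160 (-0.33), NUP37 (-0.33) and NUP85 (-0.23) were lower as well, the last 2 by -0.18 and -0.14 after quantile normalization within sets. NUP160 changed by 0.02 in set D, where its mock samples had an SD of 0.72 (n = 3), and by -0.04 in set E. The 3 NUP160 probe sets changed by -0.55 to -0.12. NUP133, which joins the stem to the neighbouring complex, was higher at 0.24 ± 0.05. NUP43 changed by 0.08 and did not pass over all sets. It passed after quantile normalization (0.21), and its change when 1 set was left out was 0.01 without set F, 0.05 without set A and 0.13 without set E, none of which passed. Without imatinib sample 3 of set F alone it was 0.05.

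The inner ring, which ties the scaffold to the membrane and to the channel, had 4 members, and all 4 were lower (median -0.54). NUP155 read 7.40, 7.56 and 7.64 in the imatinib samples of set A, against 8.15, 8.32 and 8.67 in the mock samples. It changed by -0.97 ± 0.05 (adjusted p 2.63e-21, limma), and its change within the sets lay between -1.41 in set C and -0.73 in set H. NUP93, the linker that holds the channel proteins in place, read 8.05, 8.11 and 8.07 with imatinib and 8.36, 8.52 and 8.74 in mock in set A. Its combined change was -0.59 ± 0.03. The large arches NUP205 (-0.49) and NUP188 (-0.32) were lower too, NUP188 by -0.21 after quantile normalization.

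The central channel proteins carry the flexible strands through which receptors move, and all 3 were lower. NUP58 changed by -0.81 ± 0.05 and was called lower in all 8 sets, although its level was just below the median of all probe sets. NUP54 (-0.30) and NUP62 (-0.24) were called in 4 and 3 sets. NUP54 changed by -0.13 as the mean of its probe sets and NUP62 by -0.11 after quantile normalization, both still called lower. The membrane protein NUP210 was lower by little, -0.10 ± 0.03, and passed in none of the sets alone. After quantile normalization within sets it changed by 0.05 and did not pass. NUP62CL, a gene named for its likeness to the end of NUP62, changed by -0.39.

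Of the 6 members on the cytoplasmic filaments and the nuclear basket, 4 were lower, 1 higher and 1 did not pass. NUP88 read 6.9998, 7.10 and 7.09 in the imatinib samples of set A, against 7.62, 7.67 and 7.71 in the mock samples, and changed by -0.82 ± 0.06. Its partner on the cytoplasmic face, NUP214, was higher at 0.27 ± 0.03 and lay above mock in all 8 sets. These proteins are known to bind each other at the pore, and their RNAs moved in opposite directions here, although a second NUP88 probe set changed by 0.07 and did not pass. NUP98, a mobile pore protein found in leukaemia fusion genes, read 7.58, 7.58 and 7.73 with imatinib in set A, against 7.70, 7.86 and 8.08 in mock. The treatments overlapped there but in none of the other 7 sets, and the combined change was -0.49 ± 0.04. In the basket, NUP153 (-0.50) and NUP50 (-0.13) were lower. NUP50 did not pass after quantile normalization (-0.05), without set B (-0.10) or without set E (-0.10). NUP42 changed by 0.02 (-0.02 with arrays centred on the median) and did not pass.

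The importin alphas divided evenly, with 3 lower and 3 higher. KPNA2, the importin alpha tied to proliferating cells, had the largest change of all 44 genes: -1.27 ± 0.05 (adjusted p 3.07e-26, limma), so that the imatinib level was 0.414 times the mock level. In set A it read 9.05, 9.02 and 9.05 in imatinib samples, against 10.15, 10.20 and 10.34 in mock samples. In set B it read 10.48, 10.41 and 10.58 with imatinib, against 11.63, 11.70 and 11.68 in mock. The gap in both sets was several times the spread of either treatment. In set C the imatinib samples read 9.13, 9.18 and 9.05 and the mock samples 10.39, 10.73 and 10.67. In set D they read 9.55, 9.44 and 9.52 with imatinib and 10.96, 10.87 and 10.87 in mock. Set E had the widest spread, with 8.40, 7.44 and 8.08 in imatinib samples and 9.72, 9.61 and 9.45 in mock samples. It also had the largest change, -1.62, and the treatments still did not overlap. In set F the levels were 9.39, 9.31 and 9.47 with imatinib and 10.60, 10.53 and 10.23 in mock. In set G they were 10.47, 10.33 and 10.43 with imatinib and 11.45, 11.60 and 11.47 in mock. In set H they were 9.29, 9.998 and 9.68 with imatinib and 10.76, 10.86 and 10.81 in mock. The 3 imatinib samples were the lowest of the 6 in every set, and the second KPNA2 probe set changed by -1.14.

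KPNA3 moved the other way, with a combined change of 0.47 ± 0.04 (adjusted p 8.14e-14, limma) and an imatinib level 1.39 times the mock level. In set A it read 7.95, 8.13 and 8.13 in imatinib samples, against 7.32, 7.48 and 7.52 in mock samples. In set B it read 9.96, 9.98 and 9.98 with imatinib and 9.49, 9.53 and 9.47 in mock. The gap in both sets was wider than the spread of either treatment. In set C the imatinib samples read 8.51, 8.56 and 8.11 and the mock samples 7.79, 8.08 and 8.17. In set F they read 8.37, 7.61 and 8.34 with imatinib and 7.67, 7.50 and 7.53 in mock. Sets C and F are the sets where 1 imatinib sample lay among the mock samples, and KPNA3 did not pass there. In set D it read 9.10, 9.15 and 9.08 with imatinib and 8.68, 8.75 and 8.81 in mock. In set E it read 7.71, 7.45 and 7.40 with imatinib and 7.15, 7.29 and 7.09 in mock. The imatinib samples of these sets were all above the mock samples. In set G the values were 10.25, 10.06 and 10.09 with imatinib and 9.42, 9.70 and 9.49 in mock, and in set H they were 9.39, 9.43 and 9.43 with imatinib and 8.95, 8.99 and 8.89 in mock. The treatments did not overlap in either of them.

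**Figure D3:**
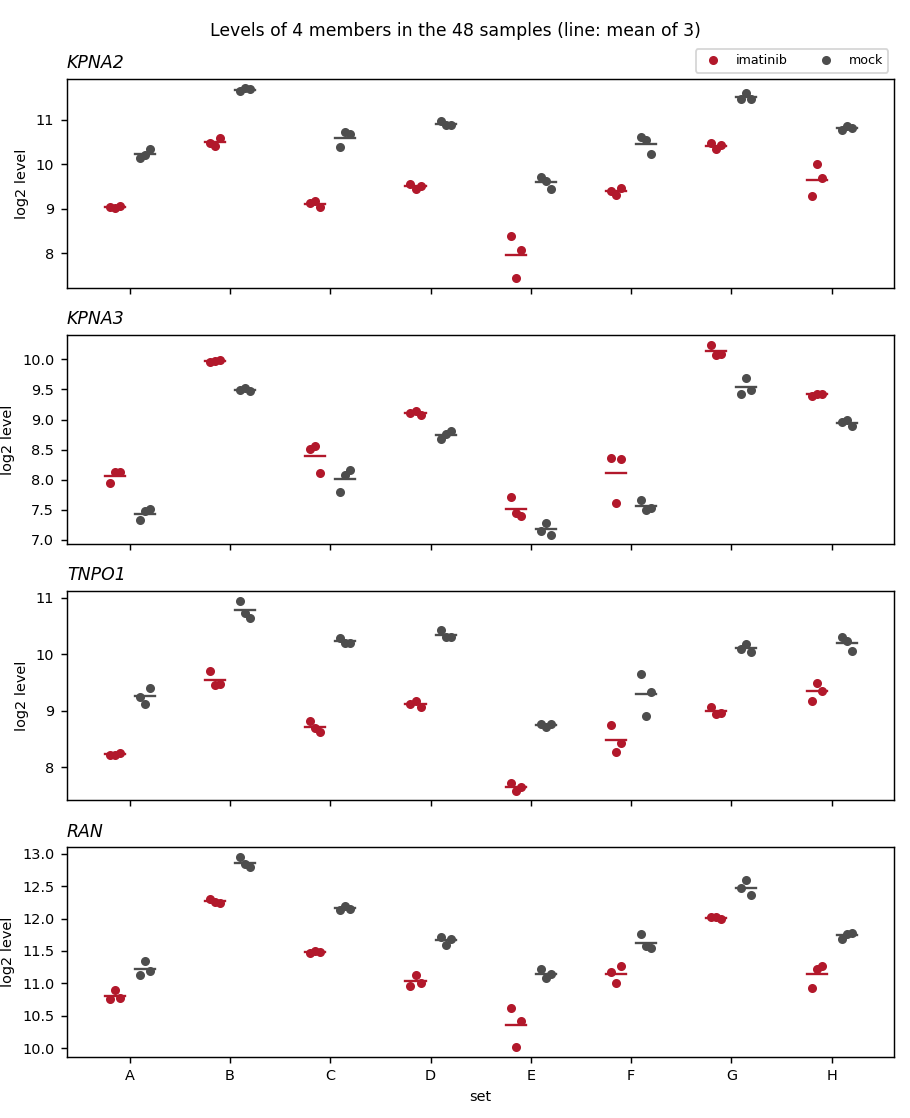
Deposited log2 level of KPNA2, KPNA3, TNPO1 and RAN in the 48 samples by set, with imatinib (red) left of mock (grey) and a line at each mean of 3. Imatinib points lie below mock points in every set for KPNA2, TNPO1 and RAN, and above them for KPNA3 except for single samples in sets C and F.

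KPNA4, the closest relative of KPNA3, read 6.34, 6.27 and 6.35 in the imatinib samples of set A, against 6.52, 6.88 and 7.40 in the mock samples. It was lower overall at -0.62 ± 0.07, opposite to KPNA3. KPNA1, KPNA5 and KPNA6 form another subfamily of importin alphas, and it was also divided: KPNA1 changed by -0.47 ± 0.05, KPNA6 by 0.33 ± 0.03 and KPNA5 by 0.14 ± 0.04. KPNA5 was dim, passed in no set alone and lost its combined call with arrays centred on the median (0.10). The calls of KPNA1 and KPNA4 depend on the probe set, as described below.

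Of the 8 other import receptors, 6 were lower, 1 was higher and 1 did not pass (median -0.29). TNPO1 is transportin, which imports RNA-binding proteins such as the hnRNPs. It read 8.22, 8.21 and 8.26 in the imatinib samples of set A, against 9.25, 9.12 and 9.41 in the mock samples. The combined change was -1.11 ± 0.05 (adjusted p 2.45e-25, limma), an imatinib level of 0.463 times the mock level. By brightest probe set, TNPO1 and KPNA2 were the members that fell below 0.5 of mock. Dimmer probe sets of RAN (0.373), NUP98 (0.461) and IPO7 (0.496) also fell below 0.5. The brightest TNPO1 probe set has the suffix for probes that may match other transcripts, and its other 4 probe sets changed by -1.25 to -0.96. IPO4, a receptor for histones and ribosomal proteins, read 6.28, 6.22 and 6.44 with imatinib and 7.11, 6.99 and 7.15 in mock in set A. Its combined change was -0.92 ± 0.04. KPNB1, importin beta itself, read 10.68, 10.66 and 10.76 with imatinib in set A, against 11.25, 11.12 and 11.28 in mock, and changed by -0.37 ± 0.03. It was called in 7 sets. IPO7 (-0.42) and IPO5 (-0.22, or -0.08 after quantile normalization), which also carry ribosomal proteins, were lower. IPO9 was lower at -0.11, but as the mean of its probe sets it changed by 0.06 and was called higher. It did not pass after quantile normalization (-0.02). IPO13, a receptor that works in both directions, was higher at 0.23 ± 0.03, and IPO8 did not pass (-0.07, with -0.11 to -0.02 when 1 set was left out).

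Of the 5 export receptors, 3 were lower and 2 did not pass, and their median change was -0.10. CSE1L returns importin alpha to the cytoplasm and had the largest change of them. It read 9.24, 9.30 and 9.21 in the imatinib samples of set A, against 9.75, 9.86 and 10.01 in the mock samples, and changed by -0.70 ± 0.05 (adjusted p 5.58e-18, limma). XPO4 (-0.25) and XPO6, the exporter of actin (-0.10), were lower. After quantile normalization XPO6 changed by 0.03 and did not pass. XPO1, the main exporter of proteins with a leucine-rich signal, read 10.12, 10.16 and 10.15 with imatinib in set A, and 9.94, 10.13 and 10.44 in mock. The imatinib samples lay within the mock range there, and the combined change of -0.09 ± 0.04 (0.04 after quantile normalization) did not pass (adjusted p 0.0593, limma). XPO1 passed with arrays centred on the median (-0.13), with dim probe sets left out before the fit (-0.09), and without set A (-0.10), F (-0.12) or H (-0.11). It also passed, at -0.12 to -0.10, when 1 of these samples was left out: imatinib sample 1 of set E, 1 or 3 of F, 1 of G or 2 of H, or mock sample 1 of set A, 3 of F or 3 of H. XPO7 did not pass either (-0.06 ± 0.03, and 0.06 after quantile normalization). It passed with arrays centred on the median (-0.10), as the mean of its probe sets (-0.10), and without set B (-0.08) or G (-0.07). It also passed, at -0.08 to -0.07, without 1 of imatinib sample 3 of set B, 1 of C, 1 of E, 3 of F or 3 of G, or of mock sample 2 of A or 1 of F.

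All 4 genes of the Ran cycle were lower (median -0.54), and 3 of them were called in every set. RAN itself read 10.76, 10.90 and 10.77 in the imatinib samples of set A, against 11.13, 11.34 and 11.20 in the mock samples. Its combined change was -0.58 ± 0.04 (adjusted p 1.27e-19, limma), with changes between -0.79 in set E and -0.41 in set A. RANBP1, which helps RANGAP1 in the cytoplasm, changed by -0.58 ± 0.03. RCC1, the chromatin-bound exchange factor that charges RAN with GTP, changed by -0.50 ± 0.03. RANGAP1, which triggers hydrolysis at the cytoplasmic face, changed by -0.30 ± 0.04 and was called in 5 sets.

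Taking the roles as 2 blocks, 17 of the 21 pore genes were lower and 2 higher (median -0.33), and 16 of the 23 transport genes were lower and 4 higher (median -0.30). Over all genes, 27.1% were lower and 41.6% higher, and among genes at or above the array's median level 39.5% and 41.4%. A further list held 30 genes of the pore and of mRNA, tRNA and protein transport, chosen with earlier results of these data known. Of its 25 measured genes, 15 were lower, 5 higher and 5 did not pass (median -0.24), and 22 lay at or above that level. Its largest falls were NDC1, an anchor of the pore in the membrane (-0.97), and SEH1L, a Y complex subunit (-0.93). XPOT, the exporter of tRNA (-0.69), AHCTF1, which seeds new pores on chromatin (-0.64), and the mRNA export factor NXT1 (-0.60) followed, with the helicase DDX19A at -0.62. RANBP2, the large protein of the cytoplasmic filaments, changed by -0.43. AGFG1 (0.33) and AAAS, a pore protein (0.26), were the largest rises.

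For 4 of the 44 genes the size of the change varied with the set, by limma's test of the set-by-treatment terms, against 7.03% of all genes, a share near that background. TNPO1 (adjusted p 0.0430, limma) was lower in every set, with changes between -1.51 in set C and -0.82 in set F, and 1 of its 4 other probe sets passed this test. KPNA1 (adjusted p 0.00400, limma) was below mock in every set, by -0.91 in set C and -0.83 in set F but by -0.23 in set E and -0.24 in set A. The test did not pass for the other 5 KPNA1 probe sets, whose changes in set F lay between -0.33 and 0.49. KPNA6 (adjusted p 0.0441, limma) ran between 0.60 in set C and 0.09 in set F, and its other probe sets did not pass this test either. NUP43 (adjusted p 0.0159, limma) was higher in set F (0.63) and set A (0.30), and its changes of -0.21 in set E and -0.20 in set D did not pass. In set F NUP43 averaged 9.06 ± 0.28 with imatinib and 8.43 ± 0.29 in mock (SD, n = 3 each), and in set E 8.02 ± 0.29 with imatinib and 8.23 ± 0.06 in mock (SD, n = 3 each). The samples of set F were more spread than those of set E in mock only.

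Several probe sets were present for 27 of the 44 genes, and in 18 of these all probe sets gave the same call. In 3 genes, probe sets were called in opposite directions. For KPNA1, 5 probe sets were lower, at -0.47 to -0.35, and the dimmest was higher at 0.34. For KPNA4, the brighter probe set was lower at -0.62 and the dimmer one higher at 0.28. For IPO9, the brighter was lower at -0.11 and the dimmer higher at 0.24. In NUP88, NUP54, NUP50, NUP188, NUP210 and XPO7 some probe sets were lower and others did not pass. In NUP88 the dimmer changed by 0.07 and in NUP54 by 0.05, and those of NUP50 ran between -0.35 and 0.03. In other genes the probe sets differed in size: the dimmer RAN probe set changed by -1.42, against -0.58 for the bright one, and those of NUP98 changed by -1.12, -0.53 and -0.49. The 4 probe sets of IPO7 changed by -1.01 to -0.42. As the mean over the probe sets of the gene, RAN changed by -1.002, IPO7 by -0.67, NUP88 by -0.38, RANBP1 by -0.31, KPNA1 by -0.29, NUP188 by -0.19, KPNA4 by -0.17, NUP210 by -0.15 and KPNA6 by 0.20. All of these kept their call. Which transcripts each probe set reads was not tested.

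**Figure D4:**
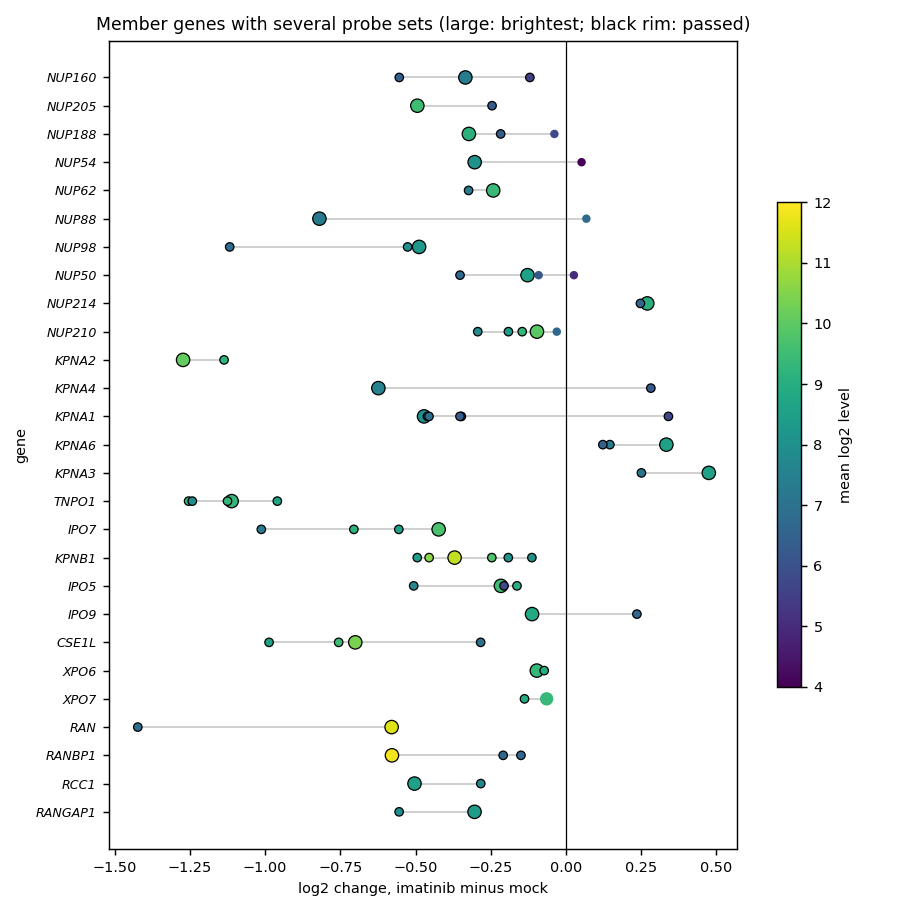
Combined log2 change (imatinib minus mock) of every probe set of the 27 genes with several, the large point being the brightest, the colour its mean level and a black rim an adjusted p under 0.05. Points lie on both sides of 0 with black rims for KPNA1, KPNA4 and IPO9, and RAN shows a gap between -1.42 and -0.58.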

How the data were processed

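The authors deposited 1 log2 value per probe set and sample, for 22283 probe sets in 48 samples. The scale was inferred from the range of the values, 2.41 to 14.9. How background was corrected, probes summarised and arrays normalized is not given in the sources used. Mock treatment also stands among the keywords of imatinib samples, where description and title were followed instead. The 68 control probe sets were left out of the tests, and 19065 of the 22215 others carry 1 gene symbol in the platform annotation.

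Values were fitted as deposited in limma 3.58.1 (R 4.3.3; lmFit, then eBayes with two-sided tests, Benjamini-Hochberg over 22215 probe sets, threshold 0.05). The fits were all 48 samples with the set as a factor, each set by itself, and a model in which the treatment effect could vary by set. The fits were tested on simulated data with independent noise and an equal added change in every set. Such data cannot show how the fits behave where samples deviate together or changes differ between sets. Precision is limited by the number of arrays. The symbol rule that gives the members and the gene lists were chosen with earlier results of these data known. Values by sample are given for the 10 largest changes among called members at or above the array's median (6.43), and for RAN, KPNB1, KPNA2, XPO1, NUP98 and the largest rise. Other members are named with their combined change. Alternatives tried were scaling, a filter on dim probe sets, other variance models, the unit, blocks, left-out samples and sets, and, added after seeing the data, leaving out probe sets with the suffix _x_at.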

Additional observations from a re-analysis of the deposited data

Results flagged for a closer look

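The change after imatinib differed in size between the 8 sets for 4 of the 44 members, by limma's test of the set-by-treatment terms, against 7.03% of all genes, a share near that background. The adjusted p-values were 0.0430 for TNPO1, 0.00400 for KPNA1, 0.0441 for KPNA6 and 0.0159 for NUP43. Set C held the largest change of TNPO1 (-1.51), KPNA1 (-0.91) and KPNA6 (0.60). Set F held the smallest change of TNPO1 (-0.82) and KPNA6 (0.09) and the largest of NUP43 (0.63). NUP43 alone of the 4 had set means on both sides of mock, between -0.21 and 0.63. For KPNA1 and KPNA6 the test passed for the brightest probe set only, and for TNPO1 it passed for 2 of 5.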

How the results depend on the processing

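The combined counts of 33 lower and 6 higher members were 33 to 35 and 6 when any 1 sample was left out, 29 and 7 after quantile normalization within sets, 35 and 5 with arrays centred on the median, and 33 and 6 with the replicate block. Centring the arrays gave 6638 lower and 6194 higher of all probe sets, against 5738 and 8740 as deposited. Of 39 called members, 34 kept direction and call in every alternative run for them. IPO9, KPNA5, NUP50, NUP210 and XPO6 lost their call in some, and NUP43, XPO1 and XPO7 gained one. Directions turned with quantile normalization for NUP210 (0.0521), XPO1 (0.0363), XPO6 (0.0333) and XPO7 (0.0643), none of them called there. With the mean over probe sets the direction of IPO9 turned (0.0613), and IPO9 was called higher. The combined change of NUP42 turned with centred arrays (-0.0190) and without set F (-0.0218). The cause was not tested.

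Counting all 98 probe sets gave more calls by construction: 74 lower and 13 higher combined, and in sets A to H 47, 63, 66, 58, 44, 33, 50 and 35 lower, with 8 higher in A, B and D, 2 in F, 5 in G and 7 in H. The small counts of higher members within sets moved most. The 16-group fit gave 4 in sets C, E and F and 5 in G; quantile normalization gave 6 in C, 2 in F and 4 in G; centring gave 0 in E and F; and the filter on dim probe sets gave 3 in F and 4 in G. The mean over probe sets gave 1 in E and 4 in F, the trended prior 1 in E, 2 in F and 4 in G, and the replicate block 0 in E, 2 in F and 1 in G. Leaving out 1 sample gave 2 to 4 in C, 0 to 3 in E, 0 to 3 in F, 1 to 5 in G and 1 to 3 in H, and 14 to 30 lower in E. Same-numbered imatinib and mock samples of a set deviated with a median correlation of 0.016, with 7 of 24 pairs over 0.1, so the numbers were not taken to pair the samples.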
